A study of Homo sapiens with 24 samples.

Results

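N1-methyladenosine (m1A) is adenosine with a methyl group on the face of the base that pairs, so that it carries a positive charge and stalls or misleads reverse transcriptase. It has long been known from transfer RNA and ribosomal RNA, where it helps to hold the folded molecule, and on mRNA it has been mapped with antibodies mainly near the 5′ end. In such a map, RNA fragments bound by an anti-m1A antibody (immunoprecipitate, IP) are sequenced beside the unselected RNA (input), and a peak is a stretch where the IP reads pile up above a background. The regions described here are the m1A peaks of untreated cells of the human embryonic kidney line HEK293T, with emphasis on those that both replicate peak lists called.

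The untreated group (UT) was wild type, served as the control of a stress experiment, and comprised 4 of the 24 libraries of the series: input and IP in replicates 1 and 2. Cells were grown in DMEM with serum and antibiotics, and the RNA came from Trizol extraction, with 40 µg of polyadenylated RNA taken from 2.5 mg of total RNA. Wild-type (WT) and ALKBH3 Knockout (KO) lists from the same cell line, also without stress treatment, were used only as a further readout of these regions. The labels do not say whether replicates came from separate cultures, so the spread between lists may be technical. The sample descriptions of the UT libraries point to the lists of starved cells, whereas the naming of the lists gives a separate UT pair, and the naming was followed. Peak names inside the UT lists carry the letters WT, so every statement on untreated cells rests on that naming.

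List 1 held 7871 peaks on 6421 RefSeq transcripts and list 2 held 9295 peaks on 7368 transcripts. Peaks of either list that shared at least 1 nt of a transcript were merged, which gave 15676 regions on 6215 genes. Both lists held 1476 regions, or 9.42% of all regions (95% Wilson interval 8.97 to 9.88, for counting error only), whereas 6386 regions lay in list 1 only and 7814 in list 2 only. By gene the overlap was wider, since 905 genes, or 14.6%, had a region in both lists. Keeping only peaks with a fold of at least 4 left 584 shared regions (7.19%) on 368 genes (9.40%). A further 1027 genes had peaks in both lists that overlapped on none of their transcripts, 1868 genes had peaks in list 1 only and 2415 in list 2 only. Isoforms repeat a signal: 329 of the 905 genes carried their shared region on more than 1 transcript, and with 1 transcript kept per gene 874 of 9159 regions were shared, or 9.54%. Of the shared regions 1462 consisted of exactly 1 peak from each list. A region called in 1 list alone was not called in the other, which does not show that its RNA was unmethylated there. As the lists are the replicates and there are 2, no test over samples was made, and the values below are descriptions.

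Single-list regions seldom lay close to a called peak of the other list on the same transcript. In list 1, 60.8% of them lay on transcripts without any peak in list 2, and 4.23% lay within 100 nt of a list 2 peak. In list 2 the shares were 65.5% and 3.53%. Where the other list did have a peak on the transcript, the median gap was 832 nt from list 1 and 848 nt from list 2. Signal too weak to be called is not in a peak list, so these values cannot show how often a call was narrowly missed. Peaks of the other list on another isoform of the gene were not counted.

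The shared peaks of the first 3 ranks by fold lay on ribosomal RNA and on transcripts that matched no gene symbol. On 28S ribosomal RNA, which carries a known m1A, the peak spanned nt 990 to 1544, with a pileup (reads over the summit) of 2014054 in list 1 and 1422523 in list 2 and summits at nt 1266 and nt 1262. Its fold enrichment over the local background was 90.8 and 85.1; folds and pileups are the authors' values, and were ranked within each list. NM_001190470 held the first rank by fold in both lists (205 and 187), with the summit at nt 936 in each. NM_001190476 (68.4 and 85.0) held the third rank and NM_001190702 (40.4 and 38.9) the fifth, and the summits of the lists coincided on both, at nt 282 and nt 986. These 4 transcripts held the same ranks in both lists, and their summits were at most 4 nt apart. Reads of near-identical RNAs may not be told apart. Whether this affects the transcripts without a symbol was not tested, so their peaks may not be their own.

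Among genes with a symbol, the shared region with the best ranks lay on CYREN, a regulator of DNA end joining, with pileups of 448 and 345 in lists 1 and 2 and folds of 40.7 and 41.2. DYNLL2, a dynein light chain, had pileups of 453 and 409 (folds 22.1 and 28.6), in a region that began at the first nucleotide of NM_080677. MPV17L2, a protein of mitochondrial ribosome assembly, had pileups of 360 and 265 (folds 28.3 and 20.04). MAPK3, the ERK1 kinase of the growth factor cascade, followed with 523 and 320 (folds 21.8 and 19.01). The lowest rank by fold among these 4 genes was 19, for MAPK3 in list 2.

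The pre-mRNA splicing factors PRPF8 and PRPF31 and the splicing regulator SRSF1 were also among the 14 highest. PRPF8, the core protein of the spliceosome, had pileups of 265 and 189 with summits at nt 157 and 121. PRPF31 had pileups of 157 and 134 and lay further in, at nt 353 to 555 of NM_015629. SRSF1 had 447 and 284, at nt 117 to 278 of NM_001078166. TUBB4A, a beta tubulin, had 280 and 188, although reads of near-identical tubulin genes may not be told apart. Next to them stood ANKRD40 (253 and 165), CCM2, a protein of vascular junctions (165 and 192), CAMTA1, a calmodulin-binding transcription activator (193 and 120), and VKORC1L1, a vitamin K epoxide reductase (146 and 145). SZRD1 (144 and 111) and the histone variant H2AZ2 (138 and 208) completed the group. List 2 had the higher pileup in CCM2 and H2AZ2 and list 1 in the other 12 of these 14 genes. Pileups have no visible normalization, and over all 1476 shared regions list 1 was higher in 987 and list 2 in 470. By fold, list 1 was higher in 722 of them and list 2 in 754.

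Ranking by pileup named other genes, on high backgrounds, whose folds ranged from 1.96 to 8.45. ATP6V0C, a subunit of the vacuolar proton pump, had pileups of 4268 and 2998 but folds of 4.86 and 4.48. GNAS, a G protein alpha subunit, had 3778 and 2286 (folds 4.76 and 5.08), and ATP5F1D, a subunit of ATP synthase, 3340 and 2503 (4.23 and 4.41). CHCHD10, a mitochondrial protein, had 3162 and 2004, yet its folds of 2.11 and 1.96 gave it rank 7414 of 7871 in list 1 and rank 9142 of 9295 in list 2. PCBP1, an RNA-binding protein (2854 and 2339), had folds of 7.58 and 8.45, ranks 629 and 528. EIF5A, a translation factor (2754 and 1741), had folds of 7.14 and 6.11, ranks 808 and 2094. ANP32B (2084 and 1341, folds 2.38 and 2.07) and TYMS, the thymidylate synthase (2054 and 1187, folds 2.997 and 2.33), completed the 8 highest. Their summits agreed closely: in EIF5A both lay at nt 175 and in ANP32B both at nt 234, and the widest distance among the 8 genes was 20 nt, in GNAS. No gene was in both the group chosen by fold and the group chosen by pileup.

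The annotated gene starts of 8 of the highest genes by fold whose shared region lay near the transcript start are shown because most shared regions lie there. They are the first 30 transcribed bases in RefSeq on GRCh38.p14, 5′ to 3′, with the first base in capitals, and serve for names and letters only, since the lists give positions on transcripts whose own start may differ.
CYREN: Agtggaggtccgcagagtttgggcgccagg
MPV17L2: Gactcgcgactggtcggcgcggcgaaagca
MAPK3: Gaggagtggagatggcggcggcggcggctc
TUBB4A: Actatgcagcttcaggacaagccctccagg
PRPF8: Acttcccggcgctgggaacgcggagcggac
ANKRD40: Gaacagggtcccccggagccggccttcggg
CCM2: Aggctgggaagtcggccgccgtaaagatgg
CAMTA1: Ggcggcggggtggctgggccggcggcggcg

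In these genes the annotated first base is A or G, as in most genes: over all protein-coding genes it is A in 50.7% and G in 36.2%. On the minus strand lie CYREN (chr7:135170678-135170707), MAPK3 (chr16:30123191-30123220), TUBB4A (chr19:6502819-6502848), PRPF8 (chr17:1684838-1684867) and ANKRD40 (chr17:50707885-50707914). On the plus strand lie MPV17L2 (chr19:18193218-18193247), CCM2 (chr7:44999746-44999775) and CAMTA1 (chr1:6785454-6785483). The first 50 bases of genes with a shared region near the start had a median GC content of 72% (quartiles 64 and 78, 497 of 602 genes matched). The median was 70% in the 1819 matched genes with such a region in 1 list only, and 64% over all 15843 protein-coding genes in the table. The first base was A in 45.3% of the genes with a shared region near the start (95% Wilson interval 40.9 to 49.7). It was A in 46.1% with a near region in 1 list only, and in 50.7% over all genes. By these measures shared and single-list genes with a region near the start lay close together, and both had more GC than the table as a whole. The higher GC was not limited to them: genes with regions further in only had a median of 70% where a region was shared and 68% where none was, with A as the first base in 42.0% and 43.5%.

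Position on the transcript separated shared from single-list regions. The median summit of shared regions lay at nt 177 (quartiles 118 and 565), against nt 1020 (quartiles 246 and 2270) in regions of 1 list. As the plot of summit positions shows, the bin of nt 100 to 149 alone held 457 shared regions, or 31.0% of them. Summits in the first 60 nt were rare, with 6 of 1476 shared and 86 of 14200 single-list regions. Within 200 nt lay 54.4% of shared regions (95% Wilson interval 51.9 to 56.9), against 24.6% of regions in list 1 only and 19.1% in list 2 only. Within 300 nt, the limit used from here on for a near region, lay 950 of the 1476 shared regions.

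**Figure D1:**
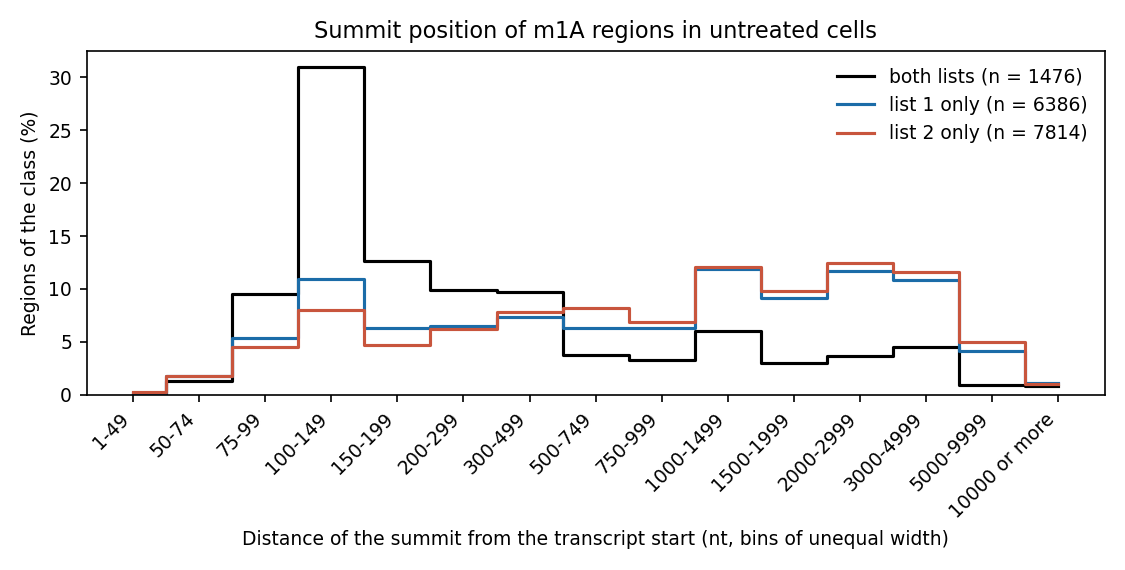
Share of regions (y axis, percent of each class) by distance of the summit from the transcript start (x axis, nt, in bins of unequal width), for regions in both UT lists (n = 1476), in list 1 only (n = 6386) and in list 2 only (n = 7814). Shared regions peak at nt 100 to 149 with 31.0%. For its width this bin is also dense in single-list regions, with 700 in list 1 only and 623 in list 2 only. The far wider bin from nt 1000 to below nt 1500 holds 761 and 940. Most regions of both single-list classes nevertheless lie beyond nt 300.

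Read from the side of the peaks, the share that fell in a shared region declined with distance from nt 101 on. In list 1 it was 35.2% for summits at nt 101 to 200, 22.3% at nt 301 to 500, 8.94% at nt 1001 to 2000 and 6.91% beyond nt 5000. In list 2 the same 4 shares were 37.5%, 18.7%, 7.35% and 5.01%. The first 60 nt departed from this order, with 12 of 48 peaks in list 1 and 5 of 55 in list 2. Both lists thus gave the highest share at nt 101 to 200 and the lowest beyond nt 5000.

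Shared regions further in were fewer, 526 regions on 316 genes, of which 23 genes also had a shared region near a start. Positions count from the start of the listed transcript, so a region deep on 1 isoform may lie near the start of another. They include 28S rRNA and the transcripts NM_001190470 and NM_001190702 described above. Among genes with a symbol, the best ranked by fold behind PRPF31 were MASTL, a mitotic kinase, at nt 547 to 660 of NM_001172304 (pileups 113 and 130), and DCAF7, an adaptor of ubiquitin ligases, at nt 4535 to 4841 of NM_005828 (157 and 105). LAMP1, a lysosomal membrane protein, followed at nt 856 to 1022 of NM_005561 (132 and 94), then RIOK3, a kinase of ribosome maturation, at nt 470 to 617 of NM_003831 (164 and 106). STUB1, a chaperone-linked ubiquitin ligase (310 and 380), and SLC7A1, a transporter of basic amino acids (101 and 66), were also in this group. The region of SLC7A1 lay at nt 5987 to 6298 of NM_003045. These deep regions were named after their values were seen, except PRPF31, DCAF7, LAMP1, RIOK3 and SLC7A1, which the rule for named genes also gave. On 1 transcript of 19 genes there were 2 or more separate shared regions, as in AHCYL1 (nt 49 to 181 and nt 257 to 399 of NM_001242673) and the RNA-binding protein HNRNPD (nt 3 to 165 and nt 249 to 461 of NM_031369), both chosen after their values were seen.

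Pileup was higher in shared regions, in each list. In list 1 the median was 78.5 in shared regions (quartiles 50 and 144) and 52 in regions of that list only (quartiles 35 and 71). In list 2 it was 60 (38 and 117) and 42 (28 and 56). The fold differed less, with medians of 4.37 and 3.79 in list 1 and 4.52 and 4.09 in list 2. Both measures overlapped widely between the classes.

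Each list was ranked and cut into 10 equal parts, or deciles. By pileup, the highest decile of list 1 had 56.0% of its peaks in shared regions (95% Wilson interval 52.5 to 59.5) and the lowest decile 8.88% (7.09 to 11.1). In list 2 these shares were 52.5% (49.3 to 55.7) and 8.17% (6.58 to 10.1). Ranked by fold, the contrast was smaller: 34.8% in the highest and 17.3% in the lowest decile of list 1, and 29.03% and 13.3% in list 2. Decile 9 by fold, with median folds of 6.53 and 6.78, had 17.5% and 12.6% of its peaks in shared regions, no more than several deciles of lower fold. By pileup the share was not in steady order either: in list 2 decile 2 had 6.67%, and deciles 3 to 8 lay between 9.58% and 13.2%, before 21.4% in decile 9. The highest decile thus stood apart by both measures, and decile 9 by pileup only.

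**Figure D2:**
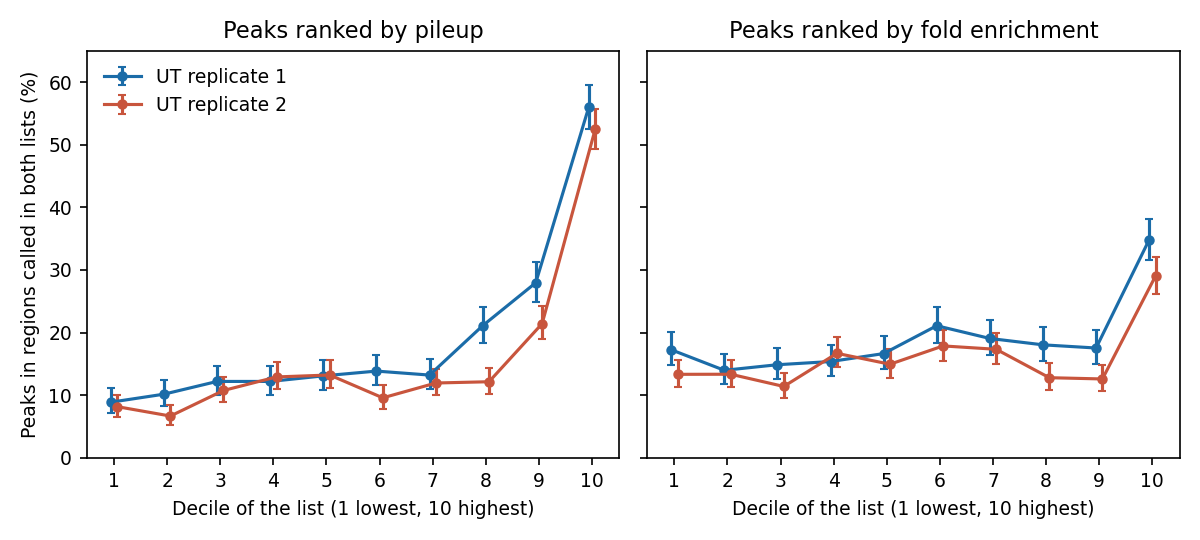
Percent of peaks that lie in a region called in both lists (y axis) by decile of each UT list (x axis), ranked by pileup on the left and by fold enrichment on the right; bars are 95% Wilson intervals, which cover counting error only. By pileup the share climbs to 56.0% and 52.5% in the highest decile, and by fold to 34.8% and 29.03%.

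The position held within ranks of pileup. In each of the 10 deciles of pileup of either list, peaks with a summit in the first 300 nt were in shared regions more often than peaks further in. In the highest decile the shares were 64.3% near the start and 39.1% further in for list 1, and 64.4% and 31.8% for list 2. In the lowest decile they were 13.1% and 6.61% in list 1, and 14.5% and 5.87% in list 2.

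The background behind each peak can be recomputed as (pileup + 1) / fold − 1, taking the caller's pseudocount as 1. MACS2, the peak caller, uses the larger of a value for the whole library and values near the peak. In list 1, 4824 of 7871 peaks (61.3%) shared the lowest background of the list, 10.03, to within 0.01, and in list 2, 5951 of 9295 (64.02%) shared 7.40. At these peaks the fold is the pileup on another scale. Of shared regions 39.2% in list 1 and 38.2% in list 2 stood on this lowest value, against 66.4% and 68.9% of the regions called in that list only. Peaks above the lowest background were in shared regions more often in all 10 deciles of pileup of each list, although in the highest decile of list 1 the shares were close, 56.3% and 54.3%. Over all deciles the shares were 44.0% above it and 22.2% on it near the start, and 17.4% and 7.25% further in, for list 1. For list 2 they were 46.8% and 20.8% near the start, and 14.8% and 5.30% further in. Transcript abundance was not measured here, and its part in these shares was not tested.

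Peak length differed between the classes as well. Lengths ran from a minimum of 100 nt to 553 nt in list 1 and 554 nt in list 2, and 57.6% and 55.9% of peaks were exactly 100 nt long. Shared regions had a median peak length of 110 nt in both lists, against 100 nt in regions of 1 list. Peaks of exactly 100 nt made up 37.9% and 38.2% of the shared regions of lists 1 and 2 and 62.2% and 59.2% of the single-list regions. A longer peak overlaps another more easily, and the part of length in the sharing was not tested.

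The distance between the summits of the lists was measured within shared regions. These regions were chosen by overlap, so the lengths of the peaks limit this distance. The distance that overlap alone would give was not tested. The median distance was 18 nt (quartiles 5 and 41, n = 1476), 108 regions had the summit at the same nucleotide in both lists, and 79.8% were within 50 nt (95% Wilson interval 77.7 to 81.8). Near the start the median distance was 14 nt and 88% were within 50 nt, whereas further in it was 28.5 nt and 65.02%. In the 326 regions in the highest decile of both lists by pileup it was 11.5 nt, and 92.6% were within 50 nt. Neither list lay upstream in general, with list 1 upstream in 716 regions and list 2 in 652. An overlap shorter than 50% of the shorter peak was found in 8.21% of shared regions near the start and in 24.0% of those further in.

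**Figure D3:**
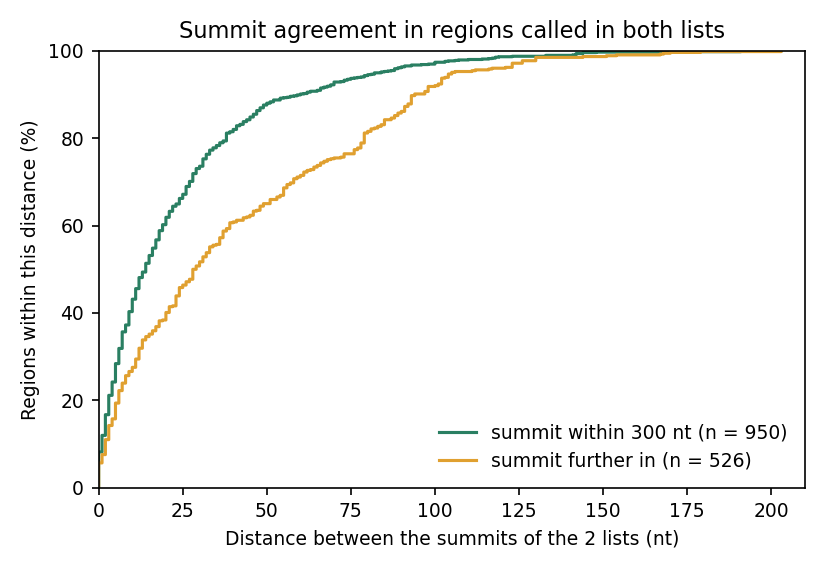
Cumulative percent of shared regions (y axis) by distance between the summits of the 2 UT lists (x axis, nt), for summits within 300 nt of the transcript start (n = 950) and further in (n = 526). The curve for regions near the start lies above the other at 50 nt, with 88% against 65.02%.

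Among genes with a symbol and a shared region in the first 500 of each list by fold, the closest summits belonged to KPNA4, a nuclear import receptor, with both at nt 103 of NM_002268. RIOK3 had its summits at nt 540 and 539, the splicing regulator SRSF6 at nt 110 and 109, and HEBP1, a heme-binding protein, at nt 103 and 101. The widest among these genes were DCAF7, with 81 nt between the summits, PRPF31 with 53 nt, USP32, a deubiquitinase, with 41 nt, and PRPF8 with 36 nt. In DCAF7 the list 1 summit lay at nt 4602 and that of list 2 at nt 4683.

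Signal heights of shared regions followed each other across the lists. Pileup in list 1 was 1.32 times that in list 2 at the median (quartiles 0.889 and 1.87), close to the ratio of 1.35 between the lowest backgrounds of the lists. Over 1476 regions log2 pileups correlated with a Pearson r of 0.821 and a Spearman rho of 0.687, log2 folds with 0.449 and 0.368, and log2 lengths with 0.268 and 0.252. These correlations run across regions, which include isoforms and share their 2 lists, and are given as descriptions. Of the shared regions 26.1% differed by more than 2-fold in pileup.

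**Figure D4:**
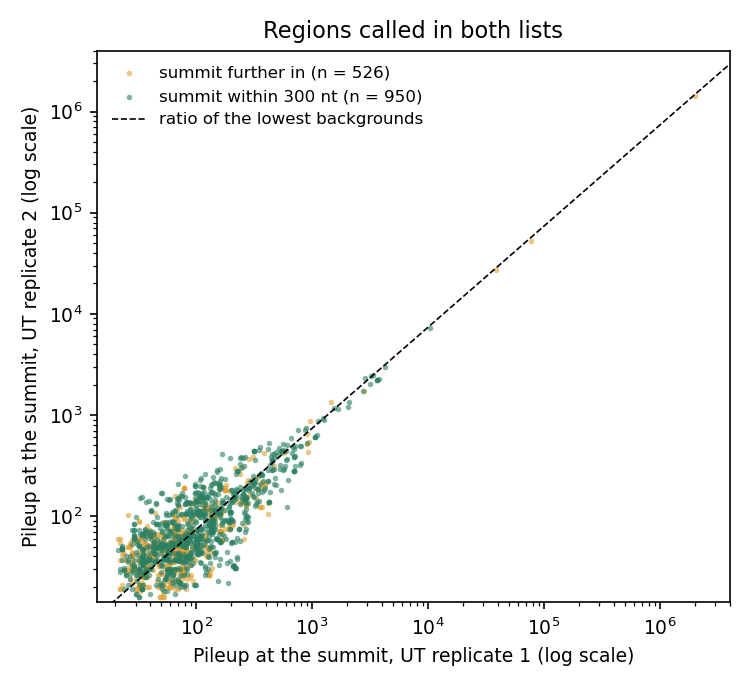
Pileup at the summit of each shared region in UT replicate 1 (x axis, log scale) and replicate 2 (y axis, log scale), coloured by summit position; the dashed line is the ratio of the lowest backgrounds of the lists, 1.35. The quartiles of the ratio are 0.889 and 1.87, on either side of the line, and 26.1% of the regions differ by more than 2-fold.

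Genes called in 1 list alone included strong peaks. ILF2, a nuclear partner of a protein that binds double-stranded RNA, had a pileup of 478 and a fold of 21.7 in list 1, the rank 14 of that list, and no peak in list 2. GPN1, a GTPase (pileup 166), CENPE, a kinesin of the kinetochore (164), GRHPR (162), GPSM2 (158) and CLCC1 (157) followed in list 1. NDUFB2, a subunit of mitochondrial complex I, had a pileup of 192 and a fold of 22.97 in list 2, rank 9 there, and no peak in list 1. HGS, a sorting protein of endosomes (148), PRKAA2, a catalytic subunit of AMPK (135), SUMF2 (134), SPEN (168) and RECQL, a DNA helicase (123), followed in list 2. Of these 12 peaks 6 had their summit further than 300 nt from the start, such as CENPE at nt 2550 and SPEN at nt 7215.

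Strong peaks at different places of the same gene were also seen. Among peaks of any rank, 1027 genes (16.5%) had peaks in both lists without a shared region, against 905 (14.6%) with one. Peaks in the first 500 of both lists by fold, with no overlap on any transcript, were found in 3 genes. How many genes had a peak in the first 500 of both lists was not counted. In CCSAP the list 1 peak lay at nt 1878 to 1982 and the list 2 peak at nt 121 to 277 of NM_145257. In FAM98B the list 1 peak lay at nt 103 to 232 and that of list 2 at nt 1321 to 1424 of NM_173611. WNK1, a kinase of ion transport, was the third. Its list 1 peak lay at nt 5337 to 5436 of NM_001184985 and its list 2 peak at nt 6107 to 6277 of NM_014823. Positions on different transcripts were not compared on the genome, so whether the WNK1 peaks mark different places was not tested. The same holds for any of the 1027 genes whose peaks lie on different isoforms.

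Gene groups were compared by the share of their genes, among those with any region, that had a shared one, beside 14.5% for all genes with a symbol. Of 28 groups 18 had a share above that and 10 below. The 18 include groups of fewer than 10 genes and the cell type markers, with 1 of 2 genes for HEK293 and 1 of 1 for other cell types. Some genes are in more than 1 group, so the groups are not independent. CLK2, SRSF7, HNRNPM, SNRPB, SNRNP70, NDUFS6, CYCS, CTSB and HRAS, given as examples below, were chosen after their values were seen. Counts of summits near the start in a group take 1 region per gene. A summit near the start was common in all genes: of 905 with a shared region, 612 had at least 1 there. Splicing factors and hnRNP proteins had 21 of 57 genes with a shared region, or 36.8% (95% Wilson interval 25.5 to 49.8), with the summit near the start in 13. Apart from those named above, they included CLK2, a kinase of splicing regulators (pileups 104 and 75), SRSF7 (260 and 316), HNRNPM (283 and 191), SNRPB, a core protein of spliceosomal particles (154 and 212), and SNRNP70 (178 and 188), whose region lay at nt 1263 to 1419 of NM_003089. The median pileup over all regions of the group was 143 in list 1 and 83 in list 2, above the list medians of 56 and 44, and its part in the share was not tested.

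Oxidative phosphorylation had 13 of 42 genes (31.0%, interval 19.1 to 46.03), 10 of them with a summit near the start. NDUFA8 of complex I had pileups of 85 and 86 at nt 73 to 190 of NM_014222, and NDUFS6 264 and 184. COX7A2 of complex IV had 68 and 149, and CYCS, cytochrome c, 395 and 191. ATP5MF and its readthrough gene ATP5MF-PTCD1 (92 and 49) are counted as separate genes here, although their reads may not be told apart. The group's median pileups, 70 and 65, also lay above the list medians.

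Autophagy and lysosome genes had 8 of 27 (29.6%), among them MAP1LC3B and GABARAPL2, proteins that are attached to autophagosome membranes, with pileups of 440 and 382 and of 473 and 206. In CTSB, a lysosomal protease, the lists differed, with pileups of 132 and 28. The growth factor cascade had 4 of 11 genes, among them HRAS (113 and 155), MAP2K1 (38 and 68) and MAPK3. Cytosolic ribosomal proteins had 5 of 20, of which RPS20 was high (540 and 435) and RPL15 (38 and 34) and RPL17 (34 and 27) were low. Antioxidant genes had 3 of 12, namely PRDX5 (130 and 82), TXN (491 and 429) and GPX4 (92 and 39). The intervals of the cytosolic ribosomal and antioxidant groups, 11.2 to 46.9 and 8.89 to 53.2, include the 14.5% of all genes.

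Zinc finger ZNF genes stood at the other end, with 7 of 102 (6.86%, interval 3.36 to 13.5), all 7 with the summit near the start. ZNF219 had pileups of 60 and 55, ZNF207 84 and 135, and ZNF768 152 and 272. The group's median pileups of 50 and 32 lay below the list medians. Integrated stress response genes had 1 of 13, the chaperone HSPA5 (63 and 55), and serum-responsive early genes 1 of 12, JUND (370 and 172). Translation factors had 4 of 39 and solute carriers 10 of 96. The intervals of these groups include the 14.5% of all genes. They were 1.37 to 33.3 for integrated stress response, 1.49 to 35.4 for serum-responsive, 4.06 to 23.6 for translation factor and 5.76 to 18.1 for solute carrier genes. Among translation factors EIF4G1, the scaffold of the cap-binding complex, had pileups of 41 and 112, so that the lists differed by more than 2-fold.

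The other groups of 10 or more genes lay between splicing factors and zinc finger genes. Ubiquitin genes had 12 of 62, with USP32 (116 and 173), UBE2B (240 and 140) and UBB, a polyubiquitin gene of repeated units (1459 and 1357). Chromatin modifiers had 13 of 72, with PHF19 (145 and 211), PHF20L1 (87 and 61) and KMT2A (58 and 102), whose summits were 144 nt apart. DDX and DHX helicases had 6 of 33, with DDX42 (105 and 74) and DHX40 (108 and 43). Chaperones had 5 of 29, with DNAJB11 (127 and 69) and TCP1, a chaperonin subunit (323 and 217). Proteasome subunits had 4 of 23, of which PSMD2 (227 and 61) and PSMD4 (280 and 97) were higher in list 1. Cell division genes had 7 of 55, with CCND3, a cyclin (194 and 109), and E2F1 (205 and 139). Mitochondrial ribosomal proteins had 4 of 31 (MRPL41, 165 and 237), RAB GTPases 3 of 25 (RAB12, 106 and 110), sterol synthesis genes 2 of 16 (INSIG1, 294 and 222) and RNA methylation genes 2 of 16, RBM15B (117 and 119) and NSUN2 (27 and 51).

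Groups of fewer than 10 genes with a region gave 2 of 8 histones (H3-3B, 385 and 183, beside H2AZ2), 2 of 6 tubulins, 1 of 3 14-3-3 proteins (YWHAB, 239 and 194), 2 of 8 stress granule proteins (ATXN2L, 57 and 48, beside EIF4G1) and 1 of 6 proteins of small nucleolar particles (FBL, 342 and 185). A peak list does not measure expression, so the cell line could not be checked by its markers. Of 7 markers of HEK293 cells 2 had a region, and NEFM, a neurofilament protein, a shared one (204 and 80). Of 17 markers of other cell types 1 had a region, the collagen COL1A1 (57 and 28), shared by both lists.

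**Figure D5:**
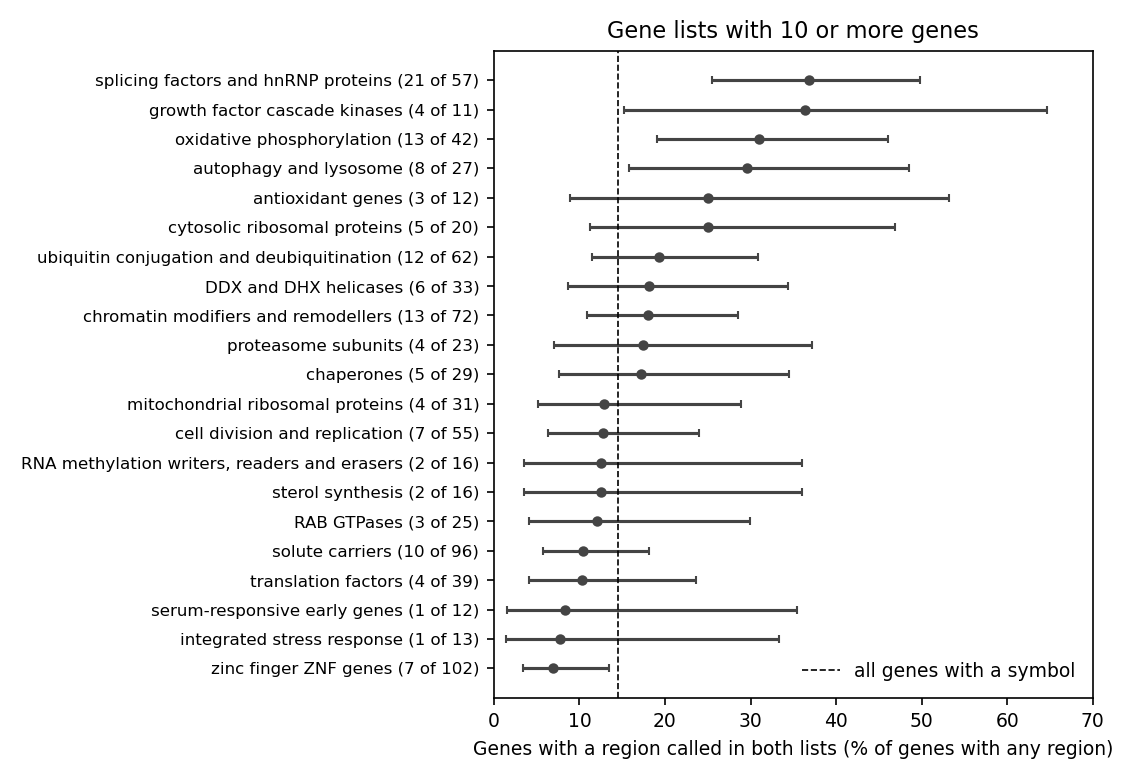
Percent of genes with a shared region among the genes of each group with any region (x axis), for groups of 10 or more such genes (y axis, counts in brackets); bars are 95% Wilson intervals for counting error, and the dashed line is the 14.5% of all genes with a symbol. Splicing factors lie highest with 36.8% and zinc finger genes lowest with 6.86%.

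The WT lists (2175 and 3410 peaks) and KO lists (3447 and 3524), which took no part in choosing the regions, held shared regions more often than single-list ones. A shared region spans the peaks of both UT lists and so can be wider than a single-list region. A wider region overlaps other peaks more easily, and the part of span in this readout was not tested. As peak names inside the UT lists carry the letters WT, this readout rests on the naming of the lists. WT replicate 2 held 47.8% of shared regions (95% Wilson interval 45.2 to 50.3) and 8.40% of single-list regions (7.96 to 8.87). WT replicate 1 held 29.3% and 3.76%, KO replicate 1 35.8% and 6.76%, and KO replicate 2 33.5% and 7.11%. All 4 lists held 207 shared regions (14.02%) and 139 single-list regions (0.979%), whereas none of the 4 held 39.6% of shared and 85.2% of single-list regions. The difference was present near the start, where WT replicate 2 held 61.8% and 24.3%, and further in, where it held 22.4% and 2.21%. It was also present among the regions in the highest decile of list 1 by pileup, of which WT replicate 2 held 79.8% of the shared and 40.5% of the single-list ones. Over the 10 deciles of either UT list and the 4 lists, the shared regions had the higher share in all 10 deciles, except in 9 of 10 for list 1 read in KO replicates 1 and 2.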

How the data were processed

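The authors deposited 1 peak list per replicate, called with MACS2 per the file headers and peak names, on RefSeq transcripts. Per the submitters' processing notes, Trim Galore, HISAT and the build hg19 were also used, with no versions. The deposited pileup is a coverage signal with no visible normalization, the deposited fold is a ratio over the caller's local background, and the deposited −log10 p-value and −log10 q-value are per peak. The sources used here do not say which input served as control. Read depth is unknown.

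Peaks were merged with Python 3.11.15 and pandas 2.3.3, checked on simulated lists. The strongest peak of each list stood for a region, and its position is the mean of the summits. Gene symbols came from the RefSeq table of GRCh38.p14, which matched 10547 of 10719 transcripts and served for names alone. On 4 transcripts 70 regions lay beyond 110000 nt and may not be transcript positions, so genes there were not named.

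The named genes were, by rule, 1 region per gene: the 14 shared ones with the best worse-of-2 ranks by fold and 8 by pileup, 6 per list found in that list only, up to 3 per gene group, 4 with the widest and 4 with the smallest summit distance in the first 500 by fold, and up to 6 with strong peaks apart. Some genes that the rule names are left out of the text. Genes, groups and limits were chosen with earlier results of these data known. Alternatives varied the overlap, the fold, the q-value, list length, transcripts and position limit.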

Additional observations from a re-analysis of the deposited data

How the results depend on the processing

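Of 75 values recomputed under other settings 22 moved, by more than a factor of 1.5 for counts and beyond the 95% interval or the spread between lists for other values. A reversal was defined only for the contrasts of length, pileup and fold between shared and single-list regions, and none of these reversed. Counts that moved less still differed: shared regions numbered 1238 to 1468 and their genes 760 to 902 under the settings not named for a count below. With a fold of at least 4 the shared regions numbered 584 (7.19%) on 368 genes (9.40%), 70.5% of them near the start against 30.1% of single-list regions, and the length difference of 10 nt became 15.25 nt. With an overlap of at least 50% of the shorter peak the shares were 8.03% of regions and 12.7% of genes, with 68.7% near the start and a median summit distance of 13 nt. With a −log10 q-value of at least 5, 13.6% of genes were shared, 67.0% of shared regions lay near the start, the length difference was 15 nt and the ratio of median folds 1.07, against 1.13. With 7871 peaks per list the shares were 8.92% and 13.4%, and the length difference 12 nt. With 1 transcript per gene 874 regions were shared and the length difference was 9.5 nt. A limit of 100 nt put 10.9% of shared and 7.09% of single-list regions near the start. Taking positions or values from 1 list alone gave 64.2% to 64.9% near the start, a length difference of 10 nt, and ratios of shared to single-list medians of 1.43 to 1.51 for pileup and 1.11 to 1.15 for fold. No paired analysis was possible because the results come from no test and the lists are compared only with each other. Read depth is unknown, so whether a region missing from 1 list was too shallow to call cannot be told, and intervals cover counting error only, with isoforms making them too narrow.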
